A study of Mus musculus with 24 samples.

Results

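Genes for liver and gut plasma proteins were examined in microdissected anterior heart field (AHF) tissue of mouse embryos at E9.5: *Hnf4a*, *Alb*, *Afp*, *Ttr*, *Rbp4*, *Apoa1*, *Apob* and *Itih2*, 8 of the 19938 genes measured. They were selected on the measured values themselves, array by array, each mutant group against its own controls, as a sign of posterior tissue in the pools. Their mutant to control differences are therefore given as a description with no test. The study inactivated *Tbx1* and *β-catenin* in the AHF with *Mef2c-AHF-Cre*, a transgene whose enhancer is active in the AHF lineage, so the other cells of the dissected tissue kept their floxed alleles. *Tbx1 LOF* embryos were *Mef2c-AHF-Cre/+;Tbx1* f/- or f/f, *β-cat LOF* embryos were *Mef2c-AHF-Cre/+;β-catenin* f/f, and rescue embryos had the *Tbx1 LOF* genotype with 1 floxed *β-catenin* allele added. For the arrays the methods name controls without *Cre*, *Tbx1* f/+, *β-catenin* f/+ and *Tbx1* f/+;*β-catenin* f/+ for the 3 experiments in that order, while wild type and *Cre*-carrying heterozygous littermates are also named as controls elsewhere, and this was not settled. Each experiment had 4 mutant and 4 control arrays, 24 in all, at 19 to 21 somite pairs.

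The dissected tissue was pharyngeal arches 2 to 6 without the heart tube, and each array held RNA of several pooled embryos. The *Tbx1* lines were congenic in Swiss Webster and the *β-catenin* lines had a mixed C57Bl/6 and Swiss Webster background. For the rescue crosses the methods name *Tbx1* f/f;*β-catenin* f/f females of an inbred line that came from the same mixed background. Values are log2 intensities of Affymetrix Mouse Gene 1.0 ST arrays, on which each of the 8 genes had 1 probe set. Since probe sets differ in brightness, levels were compared between arrays and not between genes. The mean intensity of each of the 8 genes was below that of the median gene. *Alb* was the dimmest, with 17.4% of genes below it. In pooled tissue, fewer cells of a type and less RNA per cell cannot be told apart. *Tbx1* was lower on all 4 *Tbx1 LOF* arrays than on their controls, by -0.64 on the log2 scale (SE 0.09, limma adjusted p = 0.00626, and 0.122 with the replicate number as a block). The call was also lost without mutant replicate 1 (adjusted p = 0.0504) and without control replicate 3 (0.0512) or 4 (0.0534). On all 4 rescue arrays *Tbx1* was also lower than on their controls, at 11.39 to 11.51 against 11.58 to 11.95. That difference was -0.31 (SE 0.09, limma unadjusted p = 0.00344, adjusted p = 0.9999). *Ctnnb1*, which encodes β-catenin, differed by -0.03 (SE 0.06) in *β-cat LOF*, adjusted p = 0.957. As a check of the labelled tissue, the mean of 11 AHF markers, *Tbx1* among them, ran from 10.06 to 10.47 over the 24 arrays. There was no array of another tissue to set it against. The list mean was 10.06 to 10.23 on *Tbx1 LOF* arrays and 10.26 to 10.42 on their controls, without overlap. In the *β-catenin* and rescue experiments the mutant and control ranges overlapped.

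The early liver bud grows from ventral foregut endoderm into the septum transversum, the mesenchyme that lies caudal to the heart, and its hepatoblasts begin to make albumin, α-fetoprotein and other secreted proteins of the plasma. The visceral endoderm of the yolk sac and the gut epithelium make many of the same transport proteins. In these cells nuclear receptors, HNF1, FOXA and C/EBP factors bind short promoters and enhancers of the plasma protein genes, so that the genes are transcribed together.

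Upstream sequences of the 250 bases before annotated starts were read from the RefSeq table of the GRCm38.p6 assembly, which held 9 windows for 7 of the 8 genes. The 5 windows below belong to genes named in the co-variation results. *Alb* and *Afp* are neighbours on chromosome 5 with 0 protein-coding genes between them, *Apoa1* and *Apob* varied as a pair, and *Hnf4a* is the transcription factor of the group, shown by the later of its 2 starts. Capitals mark matches to motif letters searched on both strands, which were GTTAAT for an HNF1 half-site, CAAAGTNC for an HNF4 core, TGTTTNC for a FOXA core and TTGCNNAA for a C/EBP core, and to TATAAA for a TATA box on the sense strand alone. N stands for any base, and matches of different motifs may overlap. The windows, each 5′ to 3′ on its gene's strand, are *Alb* (chr5:90460620-90460869, plus strand), *Afp* (chr5:90490464-90490713, plus strand), *Apoa1* (chr9:46228380-46228629, plus strand), *Apob* (chr12:7977427-7977676, plus strand) and *Hnf4a* (chr2:163546905-163547154, plus strand).
Alb: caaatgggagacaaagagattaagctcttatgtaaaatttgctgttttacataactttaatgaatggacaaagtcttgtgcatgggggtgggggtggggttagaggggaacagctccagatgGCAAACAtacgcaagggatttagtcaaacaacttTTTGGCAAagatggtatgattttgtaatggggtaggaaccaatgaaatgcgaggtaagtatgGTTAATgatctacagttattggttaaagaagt
Afp: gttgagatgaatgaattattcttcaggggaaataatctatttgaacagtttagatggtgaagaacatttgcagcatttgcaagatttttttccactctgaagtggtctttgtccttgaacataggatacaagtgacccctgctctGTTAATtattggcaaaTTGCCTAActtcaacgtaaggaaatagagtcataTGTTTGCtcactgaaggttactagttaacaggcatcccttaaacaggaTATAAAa
Apoa1: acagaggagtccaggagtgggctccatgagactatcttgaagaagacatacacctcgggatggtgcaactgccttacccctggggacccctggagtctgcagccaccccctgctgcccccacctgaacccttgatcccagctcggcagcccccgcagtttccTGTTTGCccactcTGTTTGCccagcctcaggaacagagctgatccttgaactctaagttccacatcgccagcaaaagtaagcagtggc
Apob: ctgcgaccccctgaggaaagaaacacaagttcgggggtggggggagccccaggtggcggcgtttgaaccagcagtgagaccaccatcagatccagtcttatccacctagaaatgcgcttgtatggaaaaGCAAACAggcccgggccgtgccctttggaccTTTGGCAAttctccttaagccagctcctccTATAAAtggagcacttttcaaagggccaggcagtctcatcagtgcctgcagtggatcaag
Hnf4a: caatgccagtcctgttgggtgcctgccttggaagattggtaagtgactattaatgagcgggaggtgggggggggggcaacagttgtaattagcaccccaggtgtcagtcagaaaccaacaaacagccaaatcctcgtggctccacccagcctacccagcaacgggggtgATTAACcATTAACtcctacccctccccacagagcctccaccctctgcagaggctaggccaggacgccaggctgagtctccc

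The *Alb* window held a FOXA core at -128 to -122 from the start, a C/EBP core at -94 to -87 and an HNF1 half-site at -32 to -27. *Afp* held the same 3 motifs at -55 to -49, -89 to -82 and -105 to -100, in another order along the window. It also held a TATA box at -7 to -2. In *Apoa1* the FOXA core occurred at -88 to -82 and again at -75 to -69, with no HNF1 half-site or C/EBP core. *Apob* had a FOXA core at -121 to -115, a C/EBP core at -90 to -83 and a TATA box at -60 to -55. The *Hnf4a* window held 2 HNF1 half-sites, at -81 to -76 and -74 to -69, separated by 1 base. Over the 9 windows the FOXA core was in 6, against 17.8% of 32851 windows of the same length in the table, and the C/EBP core in 5, against 9.56%. The HNF1 half-site was in 3, against 6.43%, the TATA box in 3, against 7.59%, and the HNF4 core in 0, against 3.4%. These are matches of letters, given as a description.

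All 8 genes had a higher mean in *Tbx1 LOF* than in its controls, and all 8 had a lower mean in *β-cat LOF* than in its controls. The 8 differences in *Tbx1 LOF* averaged 0.82 on the log2 scale, with a median of 0.72, while the median over all 19938 genes was -0.01 and 41.3% of genes had a positive difference. In *β-cat LOF* they averaged -0.37 with a median of -0.36, beside a median of 0.01 over all genes, of which 57.4% were positive. In rescue embryos 4 differences were positive and 4 negative, with a mean of 0.06 and a median of 0.05, beside 39.1% of all genes positive. Mutant and control arrays overlapped for all 8 genes in each experiment. Over all genes the 4 mutant and 4 control arrays did not overlap for 2.3% of genes (*Tbx1 LOF*), 2.84% (*β-cat LOF*) and 2.97% (rescue). Since these contrasts chose the genes, nothing is read from those shares.

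**Figure D1:**
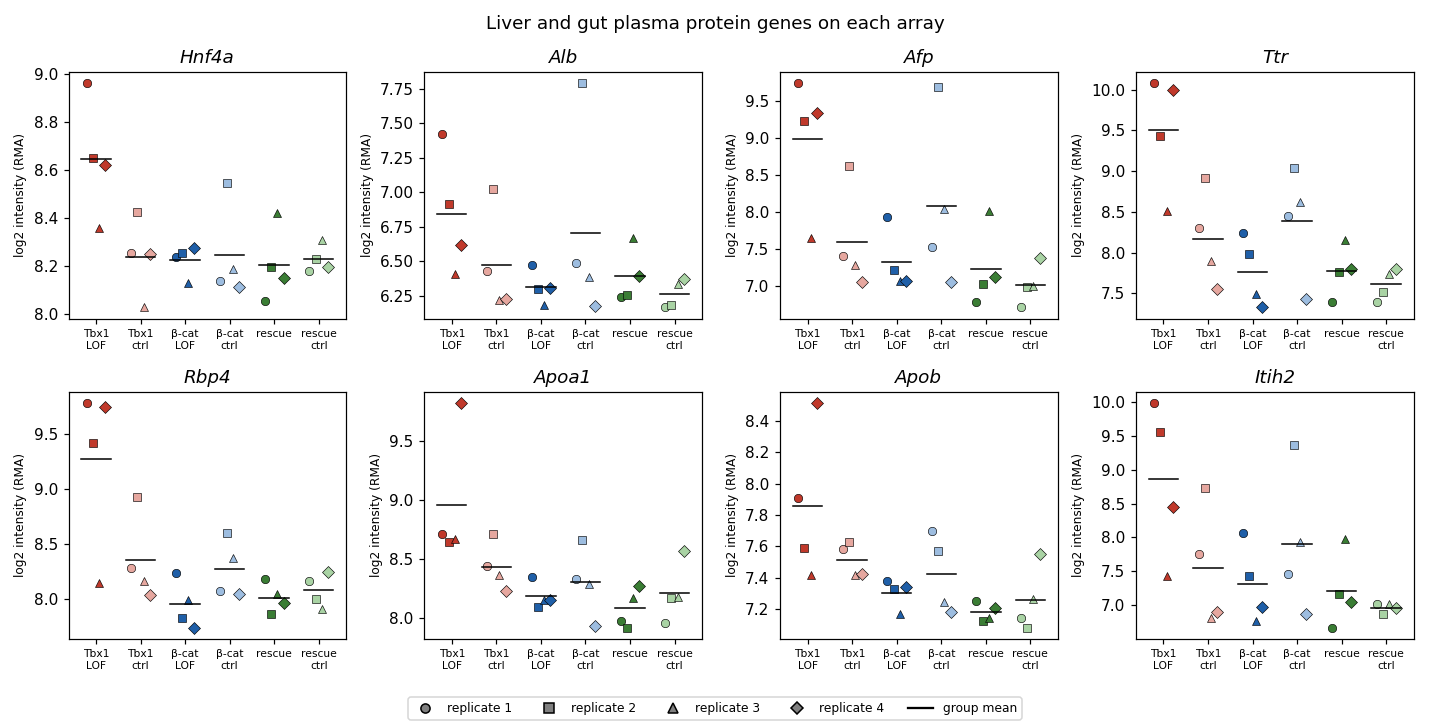
Log2 intensity of each of the 8 genes on the 24 arrays, by group, with replicates by marker shape and group means as lines (ctrl, control). *Tbx1 LOF* replicates 1, 2 and 4 lie above their controls for *Hnf4a*, *Afp*, *Ttr* and *Rbp4*, and replicate 2 of the β-cat controls lies above the other arrays of its group for all but *Apob*.

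*Hnf4a* encodes a nuclear receptor that drives hepatocyte and gut epithelial genes. Its values were 8.96, 8.65, 8.36 and 8.62 on *Tbx1 LOF* replicates 1 to 4 and 8.25, 8.42, 8.03 and 8.25 on the controls. Replicates 1, 2 and 4 lay above every control, and replicate 3 was below control replicate 2. The difference of means was 0.41 (SE 0.11), or 1.33-fold. In *β-cat LOF* it measured 8.24, 8.25, 8.13 and 8.27, against 8.14, 8.55, 8.19 and 8.11 in controls. The mutant arrays lay within the control range, where replicate 2 was the highest, and the difference was -0.02 (SE 0.11), which became 0.08 without control replicate 2. Rescue arrays gave 8.05, 8.20, 8.42 and 8.15, and their controls 8.18, 8.23, 8.31 and 8.20. Rescue replicate 3 was the highest of these 8 arrays and replicate 1 the lowest, and the difference was -0.02 (SE 0.11), which ran from -0.09 without rescue replicate 3 to 0.03 without replicate 1.

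*Alb* encodes albumin, the most abundant carrier protein of adult plasma. On *Tbx1 LOF* arrays it measured 7.42, 6.91, 6.40 and 6.61, against 6.43, 7.02, 6.22 and 6.22 on controls. Mutant replicate 1 alone lay above every control, and control replicate 2 exceeded the other 3 mutant arrays. The difference was 0.37 (SE 0.25), or 1.29-fold, and 0.17 without mutant replicate 1. In *β-cat LOF* *Alb* measured 6.47, 6.30, 6.18 and 6.31, and in controls 6.48, 7.79, 6.38 and 6.17. Control replicate 2 held the highest *Alb* value of all 24 arrays, and the other controls overlapped the mutants. The difference was -0.39 (SE 0.25), and -0.03 without that control array. Rescue embryos had values of 6.24, 6.25, 6.67 and 6.39 and their controls 6.16, 6.18, 6.34 and 6.37, a difference of 0.13 (SE 0.25) with the highest value on rescue replicate 3 and a difference of 0.03 without it.

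*Afp* encodes α-fetoprotein, the fetal counterpart of albumin made by yolk sac and fetal liver. *Tbx1 LOF* arrays measured 9.74, 9.23, 7.64 and 9.33, and controls 7.41, 8.63, 7.29 and 7.05. Replicates 1, 2 and 4 lay above every control and replicate 3 below control replicate 2. The difference, 1.39 (SE 0.46), or 2.63-fold, was the largest of the 8 genes in this experiment. On *β-cat LOF* arrays *Afp* was 7.93, 7.21, 7.06 and 7.07, and on controls 7.53, 9.68, 8.04 and 7.06. Control replicate 2 stood at about the level of the *Tbx1 LOF* arrays, and mutant replicate 1 was the highest of its group. The difference of -0.76 (SE 0.46) became -0.22 without control replicate 2. In rescue it measured 6.78, 7.02, 8.01 and 7.13, and in the controls 6.71, 6.99, 7.005 and 7.38. Rescue replicate 3 was the highest, and the difference of 0.22 (SE 0.46) became -0.04 without it.

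*Ttr* encodes transthyretin, which carries thyroid hormone and, bound to the *Rbp4* product, retinol. Its *Tbx1 LOF* values were 10.08, 9.43, 8.51 and 9.99, against 8.30, 8.92, 7.90 and 7.55 in controls. As for *Afp*, replicates 1, 2 and 4 exceeded every control. The difference was 1.34 (SE 0.33), or 2.52-fold. *β-cat LOF* arrays had 8.24, 7.98, 7.49 and 7.33 and controls 8.45, 9.04, 8.62 and 7.44. Control replicate 4 was near the lowest mutant array, whereas the other 3 controls lay above every mutant array. The difference was -0.63 (SE 0.33), 0.648 of the control level on the linear scale, and -0.41 without control replicate 2. Rescue arrays measured 7.40, 7.76, 8.15 and 7.80 and controls 7.39, 7.52, 7.74 and 7.80, which overlapped, with a difference of 0.16 (SE 0.33) that became 0.04 without rescue replicate 3.

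*Rbp4* encodes the plasma carrier of retinol. In *Tbx1 LOF* it measured 9.78, 9.41, 8.15 and 9.74, against 8.29, 8.93, 8.16 and 8.04 in controls. Replicates 1, 2 and 4 were again above every control, while replicate 3 was at the level of the lower controls. The difference was 0.91 (SE 0.25), or 1.88-fold. In *β-cat LOF* the values were 8.24, 7.83, 7.9996 and 7.75, and in controls 8.07, 8.60, 8.38 and 8.05. Mutant replicates 2, 3 and 4 lay below every control and replicate 1 among them, with a difference of -0.32 (SE 0.25). Rescue values of 8.18, 7.87, 8.05 and 7.97 overlapped control values of 8.17, 8.01, 7.92 and 8.25, and the difference was -0.07 (SE 0.25), or -0.01 without control replicate 4.

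*Apoa1* encodes the main protein of high-density lipoprotein. Its *Tbx1 LOF* values were 8.71, 8.65, 8.67 and 9.82, and its control values 8.45, 8.71, 8.36 and 8.23. Replicate 4 stood far above the rest, replicate 1 was level with control replicate 2, and replicates 2 and 3 lay below it. The difference was 0.52 (SE 0.19), or 1.44-fold, and 0.24 without replicate 4. *β-cat LOF* arrays measured 8.35, 8.09, 8.16 and 8.15, against 8.33, 8.66, 8.29 and 7.94, all within the control range, with a difference of -0.12 (SE 0.19) that became 0.00083 without control replicate 2. Rescue arrays measured 7.98, 7.92, 8.17 and 8.27, against 7.96, 8.17, 8.18 and 8.56, with control replicate 4 the highest and a difference of -0.13 (SE 0.19) that became -0.02 without it.

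*Apob* encodes the protein on which very-low-density and low-density lipoproteins are assembled. On *Tbx1 LOF* arrays it was 7.91, 7.59, 7.42 and 8.51, and on controls 7.58, 7.63, 7.42 and 7.42. As for *Apoa1*, replicate 4 was the highest array, followed by replicate 1, and replicate 3 lay just below the lowest control. The difference of 0.34 (SE 0.16), or 1.27-fold, was the smallest of the 8 in this experiment, and 0.12 without replicate 4. *β-cat LOF* values were 7.38, 7.32, 7.16 and 7.34 and control values 7.70, 7.57, 7.25 and 7.18, with control replicates 1 and 2 above every mutant array and a difference of -0.12 (SE 0.16) that became -0.03 without control replicate 1. Rescue gave 7.25, 7.12, 7.14 and 7.21 and controls 7.14, 7.08, 7.26 and 7.55, all rescue arrays within the control range, with a difference of -0.08 (SE 0.16) that became 0.02 without control replicate 4.

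*Itih2* encodes a heavy chain of the inter-α-trypsin inhibitors, plasma proteins that bind hyaluronan. *Tbx1 LOF* arrays had values of 9.98, 9.55, 7.44 and 8.45, against 7.75, 8.73, 6.81 and 6.91 in controls. Replicates 1 and 2 lay above every control, replicate 4 lay below control replicate 2 and replicate 3 below control replicates 1 and 2. The difference was 1.30 (SE 0.51), or 2.47-fold. In *β-cat LOF* the gene measured 8.07, 7.43, 6.76 and 6.98, against 7.46, 9.36, 7.93 and 6.87. Control replicate 2 was at the level of the higher *Tbx1 LOF* arrays, and the difference of -0.60 (SE 0.51) became -0.11 without it. Rescue arrays measured 6.68, 7.16, 7.98 and 7.05 and controls 7.02, 6.87, 7.02 and 6.96. Rescue replicate 3 was the highest and replicate 1 the lowest, and the difference of 0.25 (SE 0.51) became -0.01 without replicate 3.

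**Figure D2:**
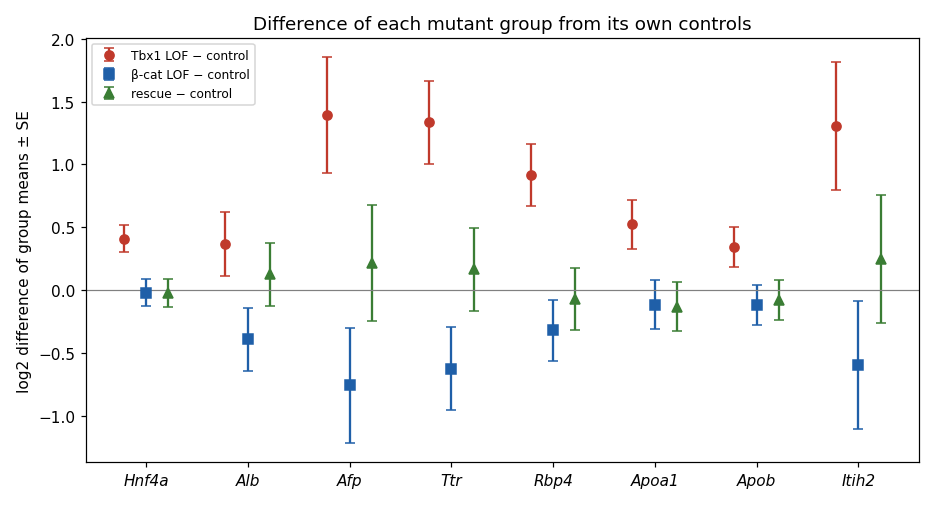
Difference of group means (log2, mutant minus own controls) for each gene in the 3 experiments, with limma SE as bars. Groups had 4 arrays, and the SE uses a spread shared by the 6 groups. *Tbx1 LOF* differences ran from 0.34 to 1.39, *β-cat LOF* differences from -0.76 to -0.02 and rescue differences from -0.13 to 0.25.

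Relative to each gene's own mean over the 24 arrays, the 8 genes together averaged 1.26, 0.87, 0.02 and 1.08 on *Tbx1 LOF* replicates 1 to 4 and 0.00, 0.57, -0.28 and -0.35 on their controls. *Tbx1 LOF* replicate 3 thus lay below control replicate 2. In *β-cat LOF* the averages were 0.06, -0.25, -0.44 and -0.41, against -0.04, 0.85, 0.08 and -0.45 in controls, where replicate 2 was about as high as *Tbx1 LOF* replicate 2. Rescue averages were -0.49, -0.39, 0.02 and -0.31, and their controls -0.46, -0.43, -0.34 and -0.17. Leaving out 1 array at a time gave mean differences of 0.67 to 1.09 in *Tbx1 LOF*, lowest without mutant replicate 1 and highest without mutant replicate 3. In *β-cat LOF* they ran from -0.56 without control replicate 4 to -0.12 without control replicate 2. In rescue they ran from -0.05 without rescue replicate 3 to 0.12 without rescue replicate 1. Taken within replicates 1 and 2, and within 3 and 4, the mean differences for *Tbx1 LOF* were 0.78 and 0.86, those for *β-cat LOF* -0.50 and -0.23, and those for rescue 0.005 and 0.11.

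Levels of the 8 genes between experiments are also given without a test, since the mutant arrays that chose the genes make up 4 of the 8 in each experiment. Over mutant and control arrays together, all 8 means were higher in the *Tbx1* than in the *β-catenin* experiment, by an average of 0.47 on the log2 scale, and higher than in the rescue experiment by 0.72. All 8 were higher in the *β-catenin* than in the rescue experiment, by an average of 0.25, which was 0.12 without β-cat control replicate 2. Control arrays alone gave another order, which was not computed without β-cat control replicate 2. That array lay 0.74 above its group mean over the 8 genes. The 8 genes averaged 7.79 in *Tbx1*, 7.92 in *β-catenin* and 7.46 in rescue controls, against 8.61, 7.55 and 7.51 in the mutants. For *Rbp4* the mutant means were 9.27 in *Tbx1 LOF*, 7.96 in *β-cat LOF* and 8.02 in rescue, and the control means 8.36, 8.28 and 8.09. For *Ttr* the mutant means were 9.503, 7.76 and 7.78 and the control means 8.17, 8.39 and 7.61. The gap between *Tbx1 LOF* and *β-cat LOF* was thus 1.31 for *Rbp4* and 1.74 for *Ttr*, where their controls differed by 0.08 and -0.22. Experiment and genetic background cannot be told apart here, and no source used here gives an array's batch.

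Within groups the 8 genes went up and down together. Over the 24 deviations of arrays from their group means, the 28 pairs had Pearson r of 0.25 to 0.92, with a median of 0.68. The genes were chosen on the values of these same arrays. Points of 1 gene pair also share their array, its RNA pool and its normalization, so these r are descriptions. *Alb* and *Afp*, the neighbours on chromosome 5, had r = 0.90. *Itih2*, on chromosome 2, had a like r with each of them, 0.92 with *Afp* and 0.89 with *Alb*. *Apoa1* and *Apob* had r = 0.84 with each other but 0.25 to 0.63, with a median of 0.39, with the other 6 genes. Those 6 had r of 0.61 to 0.92 among themselves, with a median of 0.85. This division was chosen after the values were seen. Its clearest array was *Tbx1 LOF* replicate 4, where *Apoa1* and *Apob* together deviated by 0.76 from their group mean and the other 6 by 0.11. On *Tbx1 LOF* replicate 3 the 6 deviated by -0.93 and the apolipoproteins by -0.37. Residual SDs of the 8 genes, 0.16 to 0.80, all exceeded that of the median gene, 0.11.

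**Figure D3:**
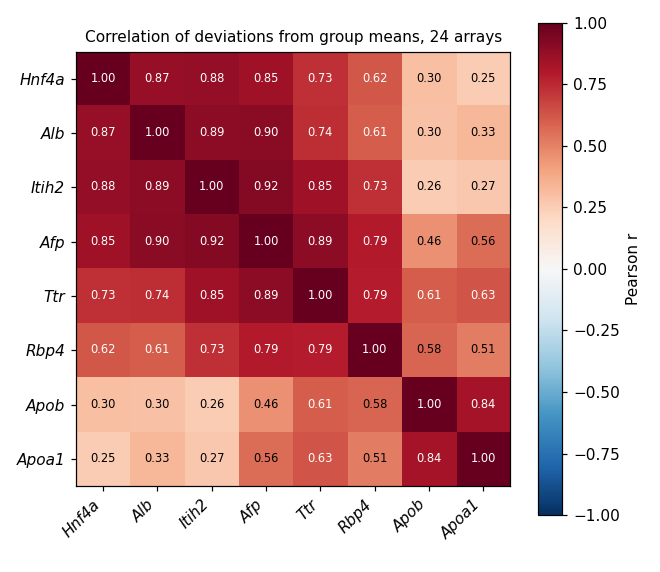
Pearson r between the 8 genes over 24 deviations of arrays from their group means, each cell showing its r. The block of *Hnf4a*, *Alb*, *Itih2*, *Afp*, *Ttr* and *Rbp4* runs from 0.61 to 0.92, and *Apoa1* with *Apob* stands at 0.84.

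Outside the 8 genes, those whose deviations were most like their mean were *Ambp* (r = 0.94), the precursor of α1-microglobulin and of the light chain to which the *Itih2* product is joined, and *Serpinf2* (r = 0.91), the plasma inhibitor of plasmin. *Fgb*, the fibrinogen β chain, followed at r = 0.88, together with the adhesion molecule gene *Alcam* at r = 0.89. The next were *Reln*, *Shisa3*, *Sfrp5*, *Tmcc3*, *Sema6d* and *Axl*, at 0.85 to 0.82. Spearman coefficients of these 10 genes were 0.75 to 0.89. Without the 2 arrays farthest from the median, *Tbx1 LOF* replicate 3 and β-cat control replicate 2, Pearson r was 0.73 to 0.91. Across all 19938 genes 50.1% had a positive r with the mean of the 8.

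Among gene lists for neighbouring tissues, the mean of 12 septum transversum and mesothelium genes had r = 0.75 (Spearman 0.67, and 0.71 without the same pair of arrays) with the mean of the 8 genes, and 9 of the 12 were positive. The 18 liver and endoderm transcription factors measured had r = 0.73 (Spearman 0.74, and 0.71 without the same pair of arrays), and the 31 other plasma protein genes r = 0.71 (Spearman 0.76, and 0.71 without the same pair of arrays). Pharyngeal endoderm genes went the other way, at r = -0.82 (Spearman -0.76, and -0.72 without the same pair of arrays), and all 9 were negative. For 11 AHF genes r was -0.67 (Spearman -0.65, and -0.57 without the same pair of arrays). The 14 heart tube genes had r = 0.44 (Spearman 0.22, and 0.31 without the same pair of arrays), and 12 posterior SHF genes, which mark the inflow side of the SHF, r = 0.53 (Spearman 0.54, and 0.66 without the same pair of arrays). Gut epithelium and posterior *Hox* lists were both at 0.17, and erythroid genes at -0.26 with all 10 negative. For 17 lipoprotein assembly and retinol transport genes r was 0.53. On β-cat control replicate 2 the 8 genes deviated by 0.74, the septum transversum list by 0.31, the heart tube list by 1.38 and the pharyngeal endoderm list by -0.16. On *Tbx1 LOF* replicate 3 the same lists deviated by -0.11, 0.16 and 0.13, beside -0.79 for the 8 genes. The part of these tissues in the values of the 8 genes was not tested.

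**Figure D4:**
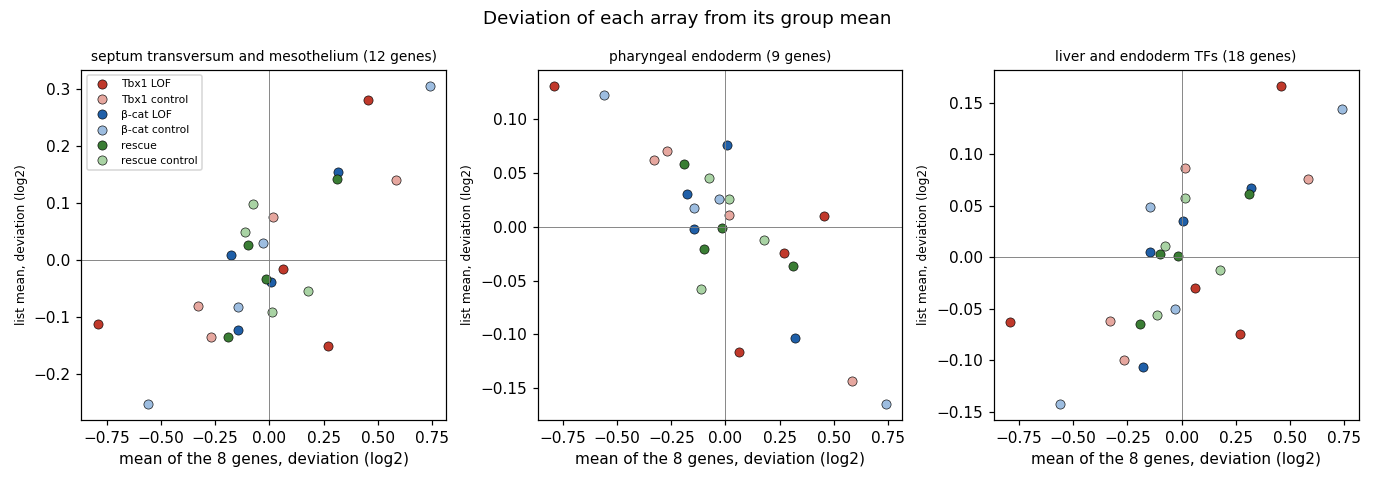
Deviation of each of the 24 arrays from its group mean (log2), for the mean of the 8 genes (horizontal) against the mean of 3 gene lists (vertical), coloured by group. Septum transversum genes and liver and endoderm transcription factors (TFs) slope upward (r of 0.75 and 0.73) and pharyngeal endoderm genes downward (r of -0.82).

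Related genes that were not used in choosing the 8 were tested in each experiment with limma. In *Tbx1 LOF*, 2.17% of all genes had an unadjusted p under 0.05 in the higher direction, 1.95% in the lower, and 0.0301% an adjusted p under 0.05. Of the 31 other plasma protein genes, 4 had a mean intensity above that of the median gene, so most were dim. At that unadjusted p 6 of the 31 were in the higher direction and 1 in the lower, with 0 adjusted calls and a median difference of 0.05. With 1 array left out there were 4 to 7 in the higher direction and a median of 0.02 to 0.10, and none in the lower without mutant replicates 1, 3 or 4, or without control replicates 1 or 2. *Ambp* differed by 0.96 (SE 0.32, unadjusted p = 0.00615, adjusted p = 0.707), *Serpinf2* by 0.67 (SE 0.19, unadjusted p = 0.00212, adjusted p = 0.474) and *Fgb* by 0.38 (SE 0.23, unadjusted p = 0.122, adjusted p = 0.9998). Of 18 transcription factors, 4 were in the higher direction and 0 in the lower, with a median of 0.07. Without *Tbx1 LOF* replicate 3 there were 7 and 1, and *Hhex*, a factor of the liver bud, had an adjusted call at 0.46 (SE 0.07, adjusted p = 0.0124). The median was 0.02 without control replicate 3 and 0.12 without control replicate 1. *Gata4* and *Gata6*, which act in endoderm as well as in heart and septum transversum, differed by 0.85 (SE 0.25, unadjusted p = 0.00257, adjusted p = 0.508) and 0.43 (SE 0.12, unadjusted p = 0.00203, adjusted p = 0.47). *Onecut1*, a liver and pancreas factor, differed by 0.34 (SE 0.15, unadjusted p = 0.0278, adjusted p = 0.9998). None of the 17 lipoprotein and retinol genes passed in either direction, while 1 passed in the higher with the replicate block and up to 1 in the higher and 2 in the lower with 1 array left out. *Cubn*, the endocytic receptor for *Apoa1* product in visceral endoderm, differed by 0.46 (SE 0.25, unadjusted p = 0.0776, adjusted p = 0.9998). Its values were 6.86 to 8.76, with the highest on replicate 4. Of 20 gut epithelium genes, 2 were in the higher direction and 1 in the lower, with 4 in the higher without mutant replicate 3 and 1 without mutant replicates 1 or 4 or control replicate 2.

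Of 12 septum transversum and mesothelium genes, 4 were in the higher direction in *Tbx1 LOF* and 0 in the lower, with a median of 0.19. There were 2 without mutant replicates 1 or 2, or without control replicates 3 or 4, and the median was 0.02 without mutant replicate 1. The mesothelial genes *Bnc1* and *Wt1* differed by 0.43 (SE 0.10, unadjusted p = 0.000313, adjusted p = 0.24) and 0.46 (SE 0.14, unadjusted p = 0.00413, adjusted p = 0.624). The 14 heart tube genes had 9 in the higher direction and a median of 0.68. Their list mean was 10.04 to 10.41 on mutant and 9.16 to 9.72 on control arrays. Posterior SHF genes had 7 of 12 in the higher direction and 1 in the lower. In the higher there were 2 without mutant replicates 1 or 3 or control replicate 3, and 3 without control replicates 1 or 4. The median of 0.18 became 0.10 without mutant replicate 1, and *Sfrp5* differed by 1.02 (SE 0.26, unadjusted p = 0.000587, adjusted p = 0.336). Of 9 pharyngeal endoderm genes 1 was in the lower direction, *Pax9*, at -0.36 (SE 0.09, unadjusted p = 0.000872, adjusted p = 0.376), and 2 were without mutant replicate 2 or control replicate 2. Of 11 AHF genes, 5 were in the lower direction and *Tbx1* alone had an adjusted p under 0.05, a call lost without any 1 of the 3 arrays named above for it. The erythroid list had 2 of 10 in the higher direction, with 4 without control replicate 4, 1 without control replicates 2 or 3 and 0 without mutant replicates 1 or 2 or control replicate 1. The 15 posterior *Hox* genes had 0 in either, and 1 in each without mutant replicate 2. List means on mutant against control arrays were 8.92 to 9.35 and 8.75 to 9.03 for septum transversum genes, and 9.07 to 9.31 and 9.12 to 9.34 for pharyngeal endoderm genes. Neither pair of ranges was apart.

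In *β-cat LOF*, 2.83% of all genes had an unadjusted p under 0.05 in the higher direction and 2.88% in the lower, and 0% an adjusted p under 0.05. Other plasma protein genes had 3 of 31 in the higher direction and 1 in the lower, *Trf*, the iron carrier transferrin, at -0.38 (SE 0.14, unadjusted p = 0.0107, adjusted p = 0.782). In the higher there were 0 without mutant replicate 4 and 1 without control replicates 2 or 3, and in the lower 0 without control replicate 2. *Ambp* differed by -0.28 (SE 0.32, unadjusted p = 0.395, adjusted p = 0.909). Transcription factors had 0 of 18 in the higher and 2 in the lower direction, *Gata4* at -0.59 (SE 0.25, unadjusted p = 0.0277, adjusted p = 0.851) and *Gata6* at -0.26 (SE 0.12, unadjusted p = 0.047, adjusted p = 0.854). In the lower there were 0 without mutant replicates 3 or 4, or without control replicates 1 or 2, and 1 without mutant replicate 2 or control replicate 3. Septum transversum genes had 3 of 12 in the lower direction, among them *Aldh1a1* at -0.49 (SE 0.15, unadjusted p = 0.00385, adjusted p = 0.69). There was 1 without mutant replicates 2, 3 or 4 or control replicate 2, and there were 5 without mutant replicate 1 or control replicate 4. Pharyngeal endoderm genes had 4 of 9 in the higher direction, with all 9 differences positive and *Nkx2-3* at 0.28 (SE 0.08, unadjusted p = 0.00184, adjusted p = 0.593), and 2 without mutant replicate 2 and 1 without control replicate 2. Heart tube genes had 12 of 14 in the lower direction, and 11 without control replicate 2, and their median of -1.09 became -0.62 without that array. Without control replicate 4, 4 of them (*Nppa*, *Nppb*, *Myh6* and *Tnni3*) had an adjusted p under 0.05. Their list mean was 9.35 to 9.85 on mutant and 9.94 to 12.07 on control arrays. Lipoprotein and retinol genes had 0 of 17 in the higher and 1 in the lower direction, gut genes 1 of 20 and 0, posterior SHF genes 0 of 12 and 3, *Hox* genes 2 of 15 and 1, erythroid genes 0 of 10 and 0, and AHF genes 1 of 11 and 0. With 1 array left out, gut genes ran from 0 in the higher direction without control replicate 2 to 5 without control replicates 3 or 4, *Hox* genes from 0 without mutant replicate 4 to 4 without mutant replicate 3, and AHF genes from 0 without mutant replicates 2, 3 or 4, or without control replicates 1 or 2, to 2 without mutant replicate 1. In the lower direction lipoprotein and retinol genes ran from 0 without control replicate 2 to 2 without mutant replicates 1 or 2 or control replicate 4, and posterior SHF genes reached 5 without control replicate 4.

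In rescue embryos, 0.371% of all genes had an unadjusted p under 0.05 in the higher direction, 0.898% in the lower and 0% an adjusted p under 0.05. Over the 11 lists 4 list entries were in the higher direction and 5 in the lower. These included *Foxa2*, an endoderm pioneer factor, at 0.21 (SE 0.10, unadjusted p = 0.0384, adjusted p = 0.9999), which was 1 of 18 transcription factors and 0 without rescue replicates 3 or 4 or control replicates 1, 2 or 4, and on the lower side the AHF genes *Fgf10*, *Tlx1* and *Tbx1*. Of the other plasma protein genes 0 of 31 were in the higher direction and 1 in the lower, and up to 2 without rescue replicate 2 and 3 without control replicate 1 in the same order. *Ambp*, most like the 8 genes in its deviations, differed by 0.10 (SE 0.32). Septum transversum and pharyngeal endoderm genes had 0 in either direction, and 1 septum transversum gene was in the lower without control replicate 3. Heart tube genes had 0 in either, and 5 in the higher without control replicate 2. The difference between experiments in these lists was not tested.

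**Figure D5:**
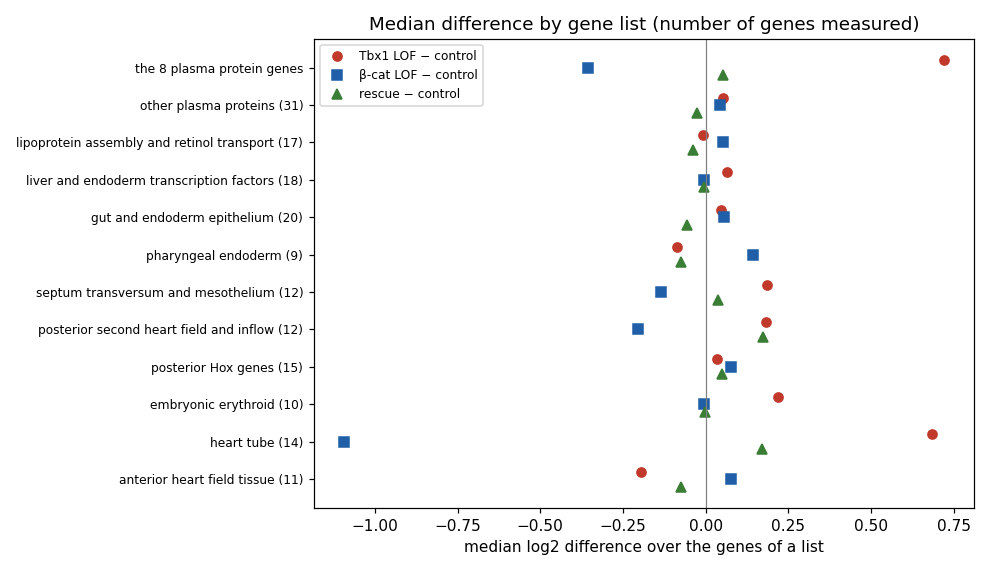
Median log2 difference (mutant minus own controls) over the genes of each list in the 3 experiments, with the number of genes measured in brackets and the 8 genes, selected on these differences, in the top row. In *Tbx1 LOF* the 8 genes stand at 0.72 and the heart tube list at 0.68, while the other plasma proteins stand at 0.05. Of those 31 plasma protein genes, 4 had a mean intensity above that of the median gene. So did 10 of the 14 heart tube genes and 0 of the 8. In *β-cat LOF* the heart tube list stands at -1.09, and at -0.62 without control replicate 2.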

How the data were processed

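RNA of 6 groups was hybridised to 24 Affymetrix Mouse Gene 1.0 ST arrays, 4 per group. The deposited values are log2 intensities that the authors obtained with RMA in oligo, which corrects background, brings arrays to 1 distribution by quantiles and summarizes probes by gene, and which can compress differences of dim probe sets. Software versions and the genome build: not given in the sources used here. ComBat is named in the methods, but whether the values include it is not stated, so batch was not modelled. Poor arrays were excluded by the authors.

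Of 35556 probe sets, 21789 had 1 gene symbol and were averaged to 19938 genes, and those with several symbols (1621) or without a symbol (12146) were not used. No filter was applied to low values. All 24 arrays were fitted to 6 group means with limma 3.58.1 in R 4.3.3 (lmFit and eBayes, two-sided, Benjamini-Hochberg adjustment over all genes, threshold 0.05, 18 residual degrees of freedom), and tested on simulated data. As the replicates were pools of embryos, p-values rest on the spread between arrays within groups, and 4 arrays per group limit the precision. That spread was estimated for each gene over all 6 groups together, so its SE was the same in the 3 experiments. Spreads of single groups could differ, as for *Itih2*, with an SD of 1.14 in *Tbx1 LOF* and 0.07 in rescue controls. Promoter windows were searched in Python 3.11.15.

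The 8 genes and the 11 related lists (189 entries, 168 measured) were chosen with earlier results of these data known. Genes named were the 8, *Tbx1* and *Ctnnb1*, the 10 genes most like their mean, and of each list the adjusted calls and the 3 largest differences in each contrast. *Tcf21* stood on 2 lists. Planned tests of the 8 genes between experiments were not kept, because they use the arrays that chose the genes. The entries that did not match a measured gene were not analysed here. Deviations of same-numbered mutant and control arrays had r of 0.16 to 0.49 in the 4 pairs of the *Tbx1* experiment. The r was 0.09 to 0.48 in the *β-catenin* and -0.06 to 0.26 in the rescue experiment. These ranges overlapped, and whether the numbers pair arrays was not settled. The main fit paired no arrays, and the replicate block was an alternative in all 3 experiments. Alternatives were a replicate block, array weights, other probe set rules, scalings and filters, experiments fitted alone, and leaving out each array.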

Additional observations from a re-analysis of the deposited data

Results flagged for a closer look

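Of 54 checks of the 8 genes within groups of 4 arrays, 2 found an array far from the others, where chance gives about 1 in 20. *Afp* on *β-cat LOF* replicate 1 was the highest of its group at 7.93, and *Apoa1* on *Tbx1 LOF* replicate 4 was the highest at 9.82. The difference from own controls went one way on every *Tbx1 LOF* array and the other way on every *β-cat LOF* array, each against its control mean, for *Afp* and *Ttr*. The gap between the 2 experiments was 2.15 for *Afp* and 1.96 for *Ttr* on the log2 scale. That gap was not tested, because these contrasts chose the genes.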

How the results depend on the processing

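The mean difference over the 8 genes kept its sign in all 21 alternatives for *Tbx1 LOF* and for *β-cat LOF* and in 20 of 21 for rescue, each within 1 SD between arrays of the main value. With array weights it was 1.19 for *Tbx1 LOF* and -0.14 for *β-cat LOF*. For single genes the sign held in 159 of 159, 152 of 159 and 151 of 159 alternatives. With the replicate block, 0 related genes were called by adjusted p in *Tbx1 LOF*, as also when each experiment was fitted alone. Summed over the lists, the block gave 36 and 9 genes at an unadjusted p under 0.05 in the higher and lower direction for the *Tbx1*, 11 and 23 for the *β-catenin* and 5 and 7 for the rescue experiment, each within 1.5 times of the fit without it. Of single lists, it moved gut genes from 1 to 3 in the higher direction in *β-cat LOF*, lipoprotein and retinol genes from 0 to 1 in the higher in *Tbx1 LOF* and from 1 to 2 in the lower in *β-cat LOF*, *Hox* genes from 2 and 1 to 1 and 0 in *β-cat LOF*, and, in rescue, other plasma proteins from 0 to 1 in the higher and gut genes from 1 to 2 in the lower. Transcription factors went from 0 to 1 in the higher in *β-cat LOF* and from 0 to 1 in the lower in rescue. Array weights gave 5 and 10 related genes at an unadjusted p under 0.05 in the higher and lower direction for *β-cat LOF*, and 12 and 11 for rescue. Fitting each experiment alone gave 15 related genes in the lower direction for *β-cat LOF*, and 9 and 9 for rescue. The cause of these shifts was not tested.

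The mean difference of the 8 genes between experiments kept its sign in all 22 alternatives of each pair. Leaving out 1 array at a time, related genes in *Tbx1 LOF* ran from 20 to 35 in the higher direction (main 34, lowest without mutant replicate 1), from 6 to 12 in the lower (main 9) and from 0 to 2 by adjusted p (main 1). In *β-cat LOF* they ran from 4 to 16 in the higher (main 11, lowest without mutant replicate 4), from 17 to 30 in the lower (main 23) and from 0 to 4 by adjusted p, the 4 being heart tube genes called without control replicate 4. In rescue they ran from 2 to 5 in the higher (main 4, lowest without rescue replicates 3 or 4) and from 2 to 7 in the lower (main 5, lowest without control replicate 2). With same-numbered arrays, 1 of 4, 2 of 4 and 1 of 4 pairs in the 3 experiments correlated best with their own number.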

Other observations

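Some related genes deviated like the mean of *Apoa1* and *Apob* over the 24 arrays, and are named here after their values were seen. Ranked by r outside the 8 genes, *Cubn* was 1, *Apoa2* 2 and *Apom* 10. The genes ranked between *Apoa2* and *Apom* stood on no related list. They were *Oaf*, *Chst9*, *Snx19*, *Calm2*, *Rn7sk*, *Pdcl2* and *Glipr1*, at r of 0.64 to 0.58. *Cubn*, the receptor of visceral endoderm that takes up apolipoprotein A-I, had r = 0.91 with the mean of the pair (0.79). Values in brackets leave out the 2 arrays farthest from the pair's median, *Tbx1 LOF* replicate 4 and rescue control replicate 4. *Apoa2*, another protein of high-density lipoprotein, had r = 0.74 (0.72). *Apom*, which carries sphingolipid on the same particle, had r = 0.58 (0.53). With the mean of all 8 genes their r was 0.44, 0.68 and 0.39 in the same order, so that *Apoa2* was about as like the 8 as the pair. The highest *Cubn* value of the 24 arrays, 8.76, was on *Tbx1 LOF* replicate 4, the array with the highest *Apoa1* and *Apob*.

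Genes whose deviations ran most opposite to the mean of the 8 were *Spry1*, an inhibitor of receptor tyrosine kinase signalling, *Irs2*, *Pax9*, *Fam193b* and *Plet1*, at an r of 0.80 to 0.88 with the sign turned. *Pax9* is a gene of pharyngeal endoderm.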
